A study of Mus musculus with 9 samples.

Results

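The tricarboxylic acid (TCA) cycle genes examined here are 29 mouse genes of the cycle, of the routes that feed and drain it and of NADPH supply, followed in C2C12 myotubes that received extra PGC-1α. They were chosen by gene name from a list given for this work, and all 29 names were found among the 55421 genes of the deposited tables, in 30 rows, since Nnt is listed under 2 gene identifiers. Of these rows, 29 held reads and all 29 passed the filter on low values. C2C12 is a mouse myoblast line whose cells fuse into multinucleated myotubes in culture. All cultures were differentiated for 4 days, infected for 4 h with adenovirus at a multiplicity of infection of 3 and collected at 48 h. The control virus carried LacZ, the second HA-Flag-PGC-1alpha FL (the full-length protein, FL below) and the third HA-Flag-PGC-1alpha deltaCTD (the same protein without its C-terminal domain, dCTD below), with 3 biological replicates each, per the series' design text. Every culture came from 1 cell line and kept its own PGC-1α gene, and the promoter of the viruses is not given in the sources used here. PolyA RNA was sequenced from a stranded kit.

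The TCA cycle oxidises acetyl groups to carbon dioxide in the mitochondrial matrix and passes the electrons to the respiratory chain as NADH and succinate. Anaplerosis is the refilling of its intermediates, for example from pyruvate or glutamate, and cataplerosis their withdrawal for synthesis. NADPH, the reductant of biosynthesis and of glutathione, is made in mitochondria by isocitrate dehydrogenase 2, by malic enzyme and by the transhydrogenase. PGC-1α is a transcriptional coactivator known in muscle for raising genes of oxidative metabolism through nuclear receptors such as the estrogen-related receptors and through NRF1 and GABP.

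Levels are normalized read counts, for which 1 set of median-of-ratios size factors was computed over the 9 libraries. Each library held 87090490 to 123446198 reads assigned to genes. Ppargc1a, which encodes PGC-1α, had a normalized count of 397 ± 13.0 (SD, n = 3) with LacZ, 211489 ± 14759 with FL and 112756 ± 10934 with dCTD, so FL stood 1.88 times above dCTD. These counts include the cell's own gene. Myotube markers were abundant in all groups, with a summed normalized count for 10 of 10 genes of 1254960 to 1324830 with LacZ, 968295 to 1027210 in FL libraries and 956445 to 1004660 with dCTD. With FL 8 of 10 were lower and 1 higher than with LacZ, against 28.3% and 30.9% of all genes tested. With dCTD 7 were lower and 1 higher, against 21.7% and 23.1%. The sum hides opposite changes. Means with LacZ, FL and dCTD were 226484, 411019 and 257748 for Des and 164059, 51254 and 47894 for Myh3. The 6 proliferation markers summed to 21596 to 23218 with LacZ, 43245 to 45071 in FL libraries and 25280 to 25897 with dCTD. The largest was Rrm2, at means of 11216 with LacZ, 27404 with FL and 13629 with dCTD, while Cdk1 had 2459, 2968 and 2538. With FL all 6 were called higher than with LacZ, and with dCTD 2, against 30.9% and 23.1% of all genes tested. The 6 myoblast or reserve cell markers summed to 26425 to 28743 over all libraries. Here too the sum hides opposite changes, with 2 higher and 1 lower with FL than with LacZ and 3 and 1 with dCTD. The shares of all genes are those given for the myotube markers. Means with LacZ, FL and dCTD were 1496, 2603 and 2598 for Myf5 and 4928, 3470 and 3861 for Spry1. In adipocyte markers, Cfd was at 0 and the sum of all 5 stayed between 2.65 and 10.1. Of 4 brown adipocyte markers, Ucp1 did not exceed a group mean of 1.01, Cidea stood at 2.67 with LacZ, 2178 with FL and 212 with dCTD, and Dio2 made up most of a sum of 15523 to 23302. Fibroblast markers (5 genes, Tcf21 at 0) summed to 23598 to 25337 with LacZ, 20956 to 22616 in FL libraries and 22346 to 23865 with dCTD. The sums of 4 macrophage markers (98.3 to 154) and 4 endothelial markers (91.3 to 121) were low, and the sum of 4 osteoblast markers, 3965 to 4800, was mostly Runx2. The part of these differences in the results was not tested, and in bulk RNA fewer cells of a type and less RNA per cell cannot be told apart.

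Full-length PGC-1α raised most of the cycle. Of the 29 genes tested, 24 were higher with FL than with LacZ and 2, Me1 and Pcx, lower (limma, Benjamini-Hochberg adjusted p of at most 0.05 over 18227 genes), against 30.9% and 28.3% of all genes tested. The median log2 fold change of the 29 was 1.06, beside -0.01 over all genes. A rise of at least 2-fold was reached by 16 of the 29, against 8.65% of all genes. Scaling to the total reads outside Ppargc1a, which moved the median of all genes to -0.09, turned the calls over all genes from 5637 higher and 5162 lower to 4575 and 7140, and those of the 29 genes to 22 and 3, with Acly as the added lower gene. By role, FL raised 13 of 13 genes of the group named NAD-linked cycle (median 1.498), 5 of 6 NADP-linked and NADPH genes (median 0.93) and 6 of 10 genes of entry and exit (median 0.45). The name of the first group is only a label, since it also holds Cs, Sucla2, Suclg1, Suclg2 and Fh1, whose enzymes do not use NAD. Several genes of the first group encode subunits of 1 enzyme, and it is not the whole cycle, since the genes of succinate dehydrogenase are not among the 29. With dCTD, 22 genes were higher and 1, Acly, lower than with LacZ, against 23.1% and 21.7% of 18066 genes, with a median of 0.94 beside -0.01, and 12 rose at least 2-fold, against 4.3%. The same groups had 13 of 13 (median 1.06), 4 of 6 (0.43) and 5 of 10 (0.13) genes higher with dCTD. The FL and dCTD comparisons share the LacZ libraries. Values after ± below are standard errors from limma for log2 fold changes and SDs over 3 libraries for levels. Where counts of 2 genes are divided within a library, the ratio is not per length, and only its change between groups is read.

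**Figure D1:**
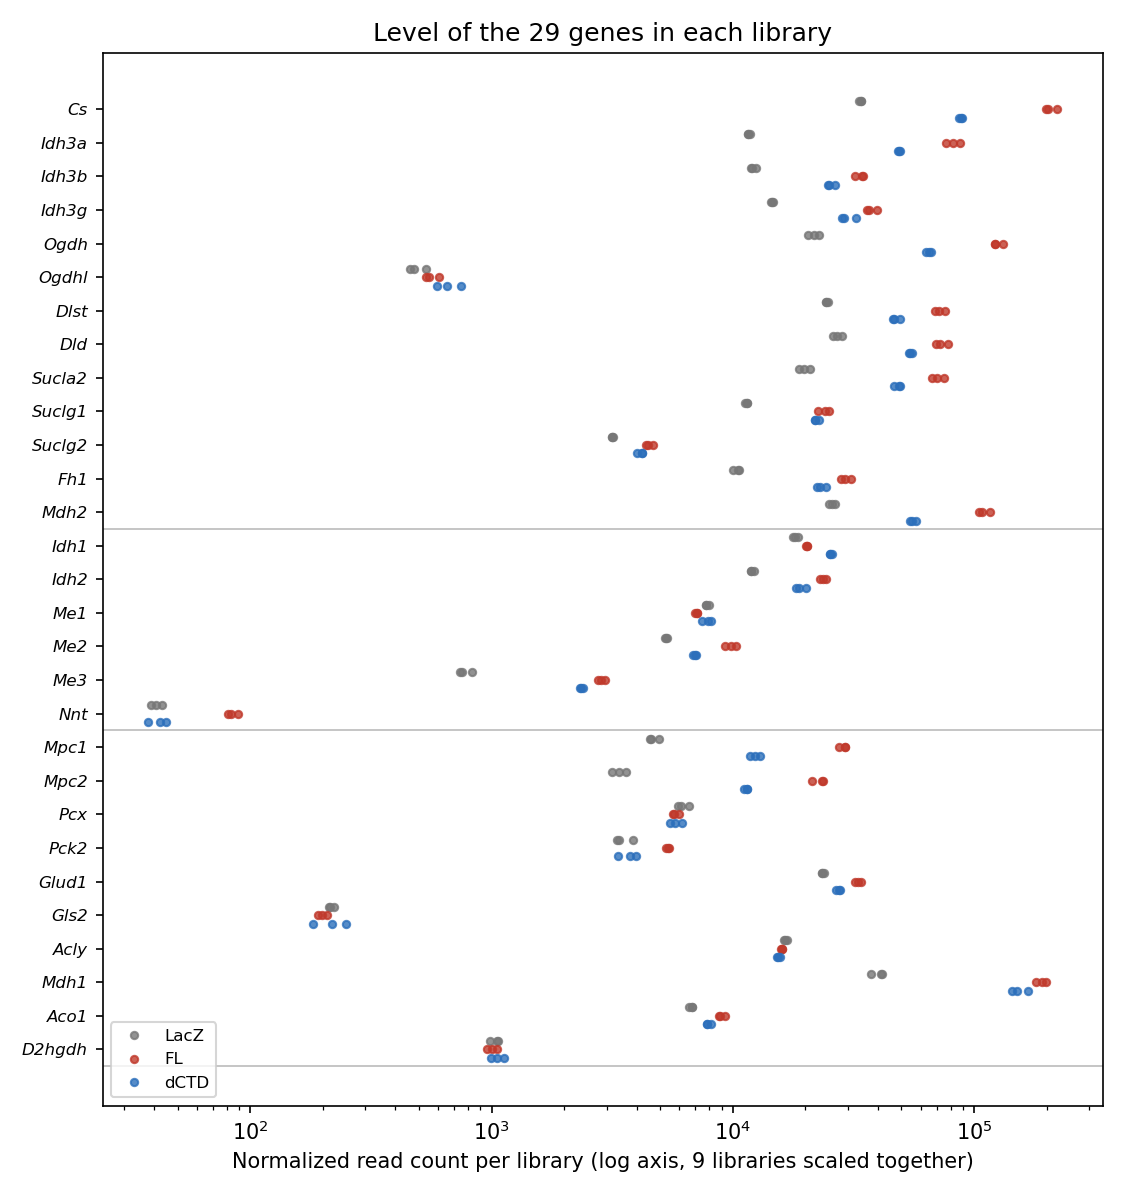
Normalized read count of each gene in each of the 9 libraries on a log axis, 1 point per library (grey LacZ, red FL, blue dCTD), with lines separating cycle enzymes, NADP-linked and NADPH genes, and genes of entry and exit. The 3 libraries of a group lie close together, and for Cs, Ogdh, Mdh2, Mpc1 and Mpc2 the FL points stand clear of the dCTD points, which stand clear of the LacZ points.

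Cs, citrate synthase, which joins acetyl-CoA to oxaloacetate and so opens the cycle (chromosome 10, 128337734 to 128362479 in mm10), had normalized counts of 33972, 33868 and 33209 with LacZ, 220703, 198370 and 202811 with FL and 86848, 87991 and 89173 with dCTD. The groups did not overlap, and the order LacZ, dCTD, FL held in every library. The log2 fold change was 2.62 ± 0.04 for FL over LacZ, 1.38 ± 0.04 for dCTD over LacZ and 1.23 ± 0.04 for FL over dCTD, the last being the largest FL over dCTD difference of the 29 genes. Its adjusted p-values were 6.0e-30, 2.2e-19 and 8.2e-21 (limma).

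The NAD-dependent isocitrate dehydrogenase, a rate-setting step of the cycle, is built from a catalytic subunit encoded by Idh3a and from the subunits of Idh3b and Idh3g. Idh3a (chromosome 9, 54586334 to 54604661) had counts of 11588, 11526 and 11767 with LacZ, 87529, 76740 and 81827 with FL and 48246, 48857 and 49454 with dCTD. Its log2 rise of 2.82 ± 0.04 with FL and 2.06 ± 0.04 with dCTD was the highest of the 29 genes in each comparison. Idh3b rose by 1.47 ± 0.04 with FL and 1.06 ± 0.04 with dCTD. For Idh3g the values were 1.36 ± 0.04 and 1.02 ± 0.04. The catalytic subunit thus moved further than its partners, which shows within single libraries, where scaling plays no part. The ratio of Idh3a to Idh3b counts was 0.958 ± 0.0159 with LacZ, 2.44 ± 0.0777 with FL and 1.92 ± 0.0560 with dCTD, and that of Idh3a to Idh3g was 0.796 ± 0.0129, 2.19 ± 0.0534 and 1.64 ± 0.0995. On the log2 scale the Idh3a/Idh3b ratio was higher by 1.35 with FL and by 1.01 with dCTD than with LacZ, with no overlap of libraries. By the exact two-sided permutation test each of these gave p = 0.1, the smallest that 3 against 3 libraries allow, and 0.107 when adjusted over the 48 ratio tests made.

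The 2-oxoglutarate dehydrogenase complex makes succinyl-CoA and consists of an E1 encoded by Ogdh, an E2 encoded by Dlst and an E3, Dld, that it shares with pyruvate dehydrogenase. Ogdh counts were 22664, 21612 and 20542 with LacZ, 132339, 122397 and 122048 with FL and 63221, 64905 and 66456 with dCTD, in 3 separate ranges. It rose by 2.54 ± 0.04 with FL and 1.58 ± 0.04 with dCTD, while Dlst rose by 1.56 ± 0.04 and 0.94 ± 0.04 and Dld by 1.43 ± 0.04 and 0.998 ± 0.04. Within libraries the E1 message gained on the E2 message. The Dlst to Ogdh count ratio was 1.14 ± 0.0471 with LacZ, 0.574 ± 0.0132 with FL and 0.730 ± 0.0126 with dCTD, without overlap (exact permutation p = 0.1 for each pair of groups, adjusted 0.107). Ogdhl, an E1 isoenzyme known mainly from brain, was a minor message with 458 to 535 counts with LacZ, 538 to 605 in FL libraries and 597 to 751 with dCTD. Its rise was 0.21 ± 0.08 with FL (adjusted p = 0.0203, limma) and 0.43 ± 0.08 with dCTD (adjusted p = 0.00015). Leaving out LacZ replicate 3 (adjusted p = 0.117) or FL replicate 1 (0.124), DESeq2 (0.0625) and total-count scaling (0.167) each ended the FL call, in a range of 0.00588 to 0.167 over 13 alternatives. Per kilobase of annotated exon, Ogdhl stood at 0.0299 ± 0.00248 of the Ogdh level with LacZ and at 0.00593 ± 0.000113 with FL.

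Succinyl-CoA ligase pairs a shared α subunit, encoded by Suclg1, with either an ADP-forming β subunit, encoded by Sucla2, or a GDP-forming one, encoded by Suclg2. Sucla2 counts were 18814, 19724 and 20791 with LacZ, 74738, 66696 and 69966 with FL and 46575, 49002 and 49240 with dCTD. Those of Suclg2 were 3192, 3170 and 3159 with LacZ, 4684, 4448 and 4354 with FL and 4013, 4208 and 4214 with dCTD. The groups were separate for each gene, but the steps were wider for the ADP-forming subunit, at 1.83 ± 0.04 against 0.50 ± 0.04 with FL and 1.28 ± 0.04 against 0.38 ± 0.04 with dCTD. The Sucla2 to Suclg2 count ratio was 6.23 ± 0.344 with LacZ, 15.7 ± 0.590 with FL and 11.6 ± 0.0382 with dCTD (exact permutation p = 0.1 for each pair of groups, adjusted 0.107). The rise of Suclg1 lay between theirs, at 1.06 ± 0.04 with FL and 0.95 ± 0.04 with dCTD. Its counts were 11212 to 11484 with LacZ, 22447 to 24997 in FL libraries and 21811 to 22704 with dCTD, so FL and dCTD overlapped.

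Fh1, fumarase, had counts of 10014 to 10637 with LacZ, 27994 to 30897 in FL libraries and 22265 to 24305 with dCTD, and rose by 1.498 ± 0.04 with FL and 1.15 ± 0.04 with dCTD. Malate dehydrogenase closes the cycle in the matrix as Mdh2 and works in the cytosol, as part of the malate-aspartate shuttle, as Mdh1. Mdh2 counts were 25773, 26519 and 25014 with LacZ, 116760, 105031 and 108029 with FL and 55488, 54435 and 57403 with dCTD. For Mdh1 they were 37450, 41075 and 41395 with LacZ, 199006, 180259 and 190858 with FL and 143550, 150993 and 166917 with dCTD. The forms separated with dCTD, where Mdh1 rose by 1.94 ± 0.05 but Mdh2 by 1.11 ± 0.04, whereas with FL the rises were 2.25 ± 0.04 and 2.09 ± 0.04. The Mdh2 to Mdh1 count ratio was 0.646 ± 0.0419 with LacZ, 0.578 ± 0.0110 with FL and 0.364 ± 0.0215 with dCTD, and all dCTD libraries lay below all others (exact permutation p = 0.1, adjusted 0.107, against each group). All FL libraries also lay below all LacZ libraries (exact permutation p = 0.1, adjusted 0.107), by a log2 difference of -0.16 beside -0.83 for dCTD.

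**Figure D2:**
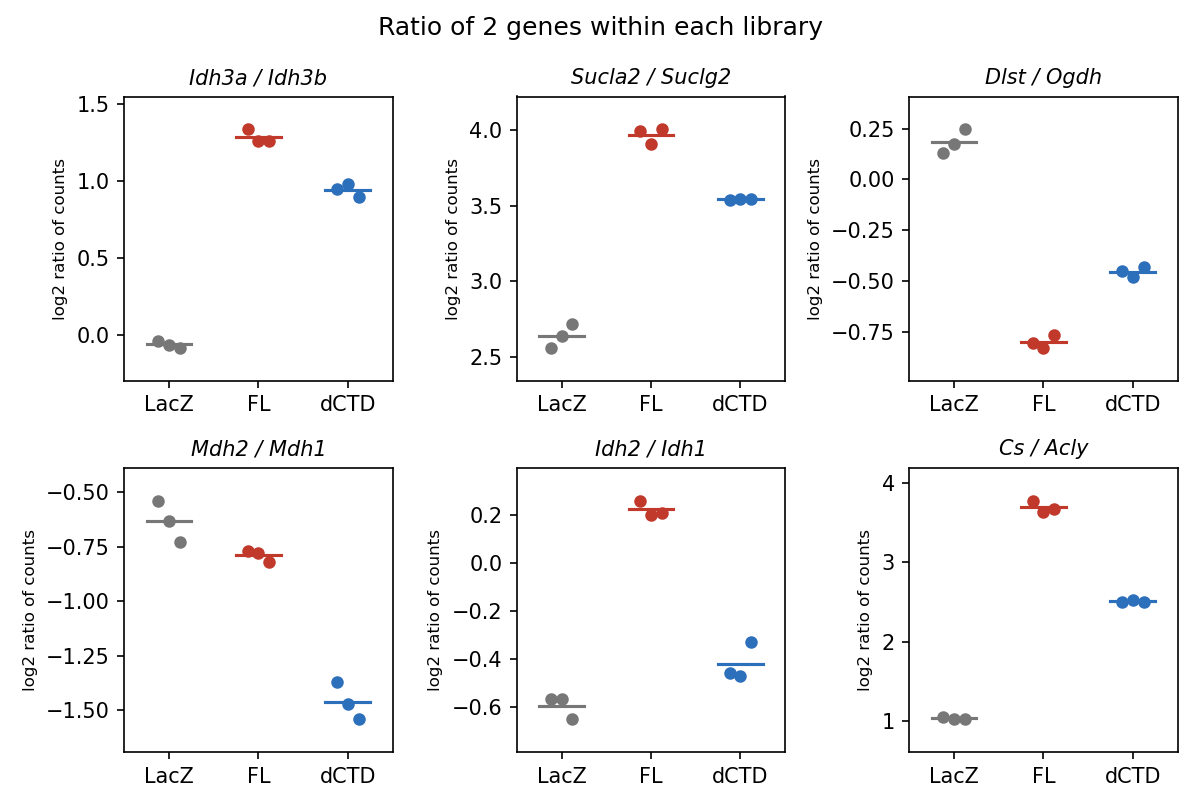
Log2 ratio of the normalized counts of 2 genes within each library, 1 point per library and a line at the group mean, for 6 of the 16 pairs compared. The Idh3a to Idh3b and Sucla2 to Suclg2 ratios are highest with FL and intermediate with dCTD, the Dlst to Ogdh ratio is lowest with FL, and the Mdh2 to Mdh1 ratio is lowest with dCTD.

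Among NADP-linked enzymes the mitochondrial forms Idh2 and Me3 rose by 0.98 and 1.88 with FL, whereas cytosolic Idh1 rose by 0.16 and cytosolic Me1 fell by 0.14. Idh2, which makes NADPH in the matrix, had counts of 11945, 12209 and 11894 with LacZ, 24335, 23006 and 23574 with FL and 18719, 18274 and 20144 with dCTD, and rose by 0.98 ± 0.04 and 0.66 ± 0.04. Idh1, its cytosolic and peroxisomal counterpart, had 17680, 18088 and 18662 with LacZ, 20339, 20039 and 20395 with FL and 25715, 25341 and 25332 with dCTD. Unlike most of the 29 genes, Idh1 was highest with dCTD, at 0.48 ± 0.04 over LacZ against 0.16 ± 0.04 for FL, and FL lay below dCTD by a log2 difference of -0.33 ± 0.03 (adjusted p = 2.6e-09, limma). The Idh1 call for FL over LacZ did not hold under total-count scaling (log2 0.07, adjusted p = 0.0601, in a range of 2.1e-05 to 0.0601 over 13 alternatives). The Idh2 to Idh1 count ratio was 0.663 ± 0.0219 with LacZ, 1.17 ± 0.0260 with FL and 0.748 ± 0.0409 with dCTD, in 3 separate ranges (exact permutation p = 0.1, adjusted 0.107).

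Malic enzymes turn malate into pyruvate, and their 3 genes also split by compartment. Me1, the cytosolic NADP form, had counts of 7736, 7712 and 7932 with LacZ, 6960, 7113 and 7117 with FL and 8114, 7923 and 7425 with dCTD. It was lower with FL than with LacZ (-0.14 ± 0.04, adjusted p = 0.00142, limma) and than with dCTD (-0.15 ± 0.04, adjusted p = 0.00212), while dCTD overlapped LacZ, with a 95% interval of the log2 change from -0.09 to 0.08. Me2, the mitochondrial form that works mainly with NAD and is counted here with its NADP-linked relatives, rose by 0.89 ± 0.04 with FL and 0.38 ± 0.04 with dCTD. Me3, the mitochondrial NADP form, rose by 1.88 ± 0.05 and 1.60 ± 0.05, with 738 to 828 counts with LacZ, 2766 to 2958 in FL libraries and 2330 to 2405 with dCTD. The Me3 to Me1 count ratio was 0.0996 ± 0.00729 with LacZ, 0.405 ± 0.0184 with FL and 0.302 ± 0.0190 with dCTD. Another gene overlaps 3.89% of the annotated exon bases of Me3, and whether counting used strand is not given in the sources used here.

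Nnt, the transhydrogenase that uses the proton gradient to make mitochondrial NADPH, carried few counts. They were 38.7, 42.9 and 40.6 with LacZ, 88.7, 81.3 and 83.5 with FL and 42.4, 44.9 and 37.7 with dCTD, from 134, 246 and 118 reads over the 3 libraries of each group. The FL libraries stood above all others, at 1.04 ± 0.16 over LacZ (adjusted p = 2.5e-06, limma) and 1.01 ± 0.17 over dCTD (adjusted p = 1.5e-05), while dCTD over LacZ was 0.02 ± 0.19 with a 95% interval from -0.37 to 0.42. The low level has a feature of the annotation beside it. A second gene entry named Nnt, on chromosome 13 from 119335528 to 119408952 on the same strand, has all its 3339 exon bases inside the exons of the first, where they make up 47.4% of the bases, and it was listed at 0 in all 9 libraries. A read in exons of more than 1 gene is left uncounted by featureCounts unless it is told otherwise, and mm10 comes from C57BL/6J, a strain whose Nnt gene lacks several exons. How far these lower the Nnt count was not tested, so its level is not comparable with those of the other genes.

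Pyruvate enters the matrix through a carrier made of the products of Mpc1 and Mpc2. Mpc1 (chromosome 17, 8282904 to 8297661) had counts of 4555, 4563 and 4954 with LacZ, 29156, 27433 and 29279 with FL and 11777, 12406 and 12912 with dCTD. Mpc2 (chromosome 1, 165460637 to 165481214) had 3157, 3368 and 3625 with LacZ, 23643, 21216 and 23526 with FL and 11492, 11446 and 11077 with dCTD. Both subunits rose, by 2.61 ± 0.04 and 2.75 ± 0.05 with FL and by 1.39 ± 0.04 and 1.74 ± 0.04 with dCTD, and FL exceeded dCTD by 1.21 ± 0.04 and 1.01 ± 0.04. Mpc2 moved further over LacZ than Mpc1, and the Mpc1 to Mpc2 count ratio was 1.39 ± 0.0477 with LacZ, 1.26 ± 0.0318 with FL and 1.09 ± 0.0707 with dCTD, in 3 separate ranges (exact permutation p = 0.1 for each pair of groups, adjusted 0.107). A non-coding gene on the other strand overlaps 23.1% of the annotated exon bases of Mpc1, so reads of that part cannot be assigned with certainty.

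Of the 3 genes that refill the cycle, Glud1 rose, Pcx was lower with FL by a narrow margin, and Gls2 was not called. Pcx, pyruvate carboxylase, which makes oxaloacetate from pyruvate, had 6090, 6565 and 5946 counts with LacZ, 5688, 5968 and 5673 with FL and 5782, 5477 and 6153 with dCTD. These ranges overlapped, and the changes were -0.10 ± 0.04 with FL (adjusted p = 0.0348, limma) and -0.10 ± 0.05 with dCTD (adjusted p = 0.0753). Without LacZ replicate 2 the Pcx change with FL was -0.06 (adjusted p = 0.231), and its call also ended without FL replicate 1 (0.107) or 3 (0.126), with no filter on low values (0.0575) and with DESeq2 (0.0644), in a range of 0.00033 to 0.231 over 13 alternatives. With dCTD, Pcx was called lower without dCTD replicate 3 (-0.15, adjusted p = 0.0161) and under total-count scaling (-0.12, adjusted p = 0.0373), in a range of 0.0161 to 0.3395 over 13 alternatives. Glud1, glutamate dehydrogenase, which supplies 2-oxoglutarate, had 23335 to 23974 counts with LacZ, 32197 to 33872 in FL libraries and 26712 to 27922 with dCTD. Its rise was 0.49 ± 0.04 with FL and 0.21 ± 0.04 with dCTD. Gls2, a glutaminase best known from liver, had only 182 to 249 counts over all libraries and no call, with 95% intervals of the log2 change over LacZ from -0.32 to 0.08 with FL and from -0.25 to 0.21 with dCTD.

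Withdrawal genes also split. Pck2, the mitochondrial phosphoenolpyruvate carboxykinase, which takes oxaloacetate out of the cycle, had 3869, 3303 and 3388 counts with LacZ, 5373, 5438 and 5273 with FL and 3739, 3354 and 3961 with dCTD. Only the FL libraries stood apart. Pck2 rose with FL (0.61 ± 0.05, adjusted p = 2.2e-11, limma), with dCTD over LacZ at 0.06 ± 0.06 (95% interval -0.08 to 0.20) and FL over dCTD at 0.54 ± 0.05 (adjusted p = 3.4e-10). Acly, which cleaves exported citrate for cytosolic acetyl-CoA, had 16302 to 16705 counts with LacZ, 15833 to 16060 in FL libraries and 15241 to 15735 with dCTD. Its change was -0.04 ± 0.04 with FL (adjusted p = 0.293, limma) and -0.10 ± 0.04 with dCTD (adjusted p = 0.0321). Under total-count scaling the FL change of Acly was -0.13 and was called lower (adjusted p = 0.00115, in a range of 0.00115 to 0.489 over 13 alternatives). The Acly call with dCTD ended when LacZ replicate 2 (adjusted p = 0.114), dCTD replicate 1 (0.103) or dCTD replicate 2 (0.116) was left out, with no filter on low values (0.0521) and with the replicate number as a block (0.0943), in a range of 0.0160 to 0.116 over 13 alternatives. The Cs to Acly count ratio was 2.05 ± 0.0245 with LacZ, 13.0 ± 0.678 with FL and 5.69 ± 0.0739 with dCTD (exact permutation p = 0.1, adjusted 0.107).

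Aco1, the cytosolic aconitase that doubles as an iron-regulated RNA-binding protein, had 6587 to 6790 counts with LacZ, 8759 to 9309 in FL libraries and 7793 to 8131 with dCTD, in separate ranges. Its rise was 0.42 ± 0.04 with FL and 0.23 ± 0.04 with dCTD. D2hgdh, which returns D-2-hydroxyglutarate to 2-oxoglutarate, had 987, 1062 and 1057 counts with LacZ, 1009, 959 and 1052 with FL and 1050, 998 and 1129 with dCTD. The D2hgdh ranges overlapped in every comparison, with 95% intervals from -0.16 to 0.08 with FL and from -0.10 to 0.15 with dCTD.

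**Figure D3:**
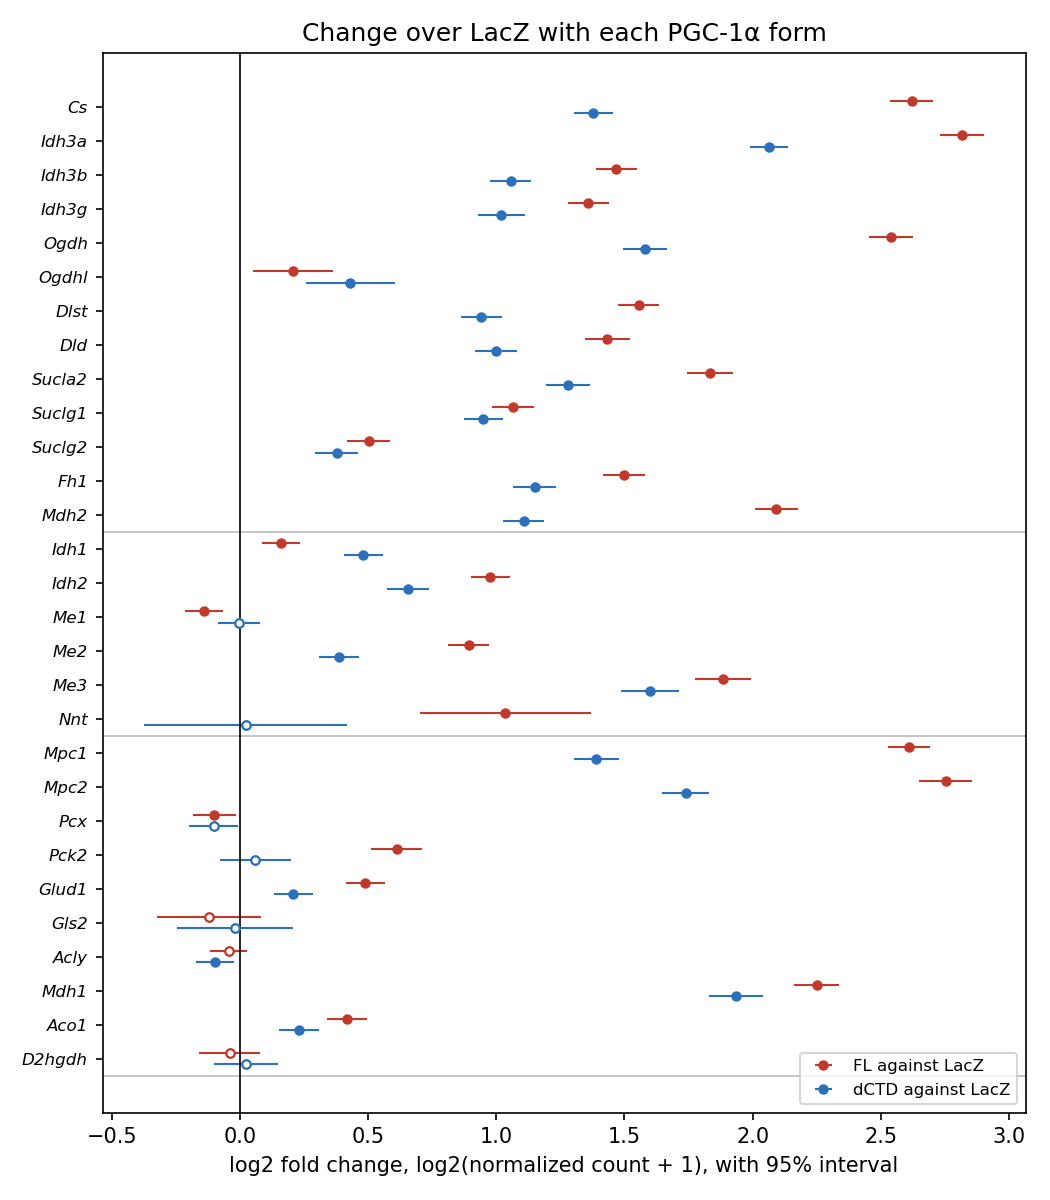
Log2 fold change over LacZ of each gene with FL (red) and dCTD (blue) from limma, points with 95% intervals and open points where the test was not passed. Cycle enzymes and the pyruvate carrier lie to the right of 0, mostly further with FL than with dCTD, while Me1, Pcx, Gls2, Acly and D2hgdh lie near 0.

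The direct comparison of FL with dCTD is between groups that differ in the C-terminal domain and also in the Ppargc1a count. The parts of the domain and of the count cannot be told apart in this design. Of the 29 genes, 22 were higher with FL and 3 lower (limma), against 22.4% and 17.8% of 18129 genes tested, with a median log2 difference of 0.33 beside -0.00238 over all genes. With total-count scaling the calls over all genes turned from 4053 higher and 3228 lower to 3141 and 5410, and those of the 29 genes became 20 and 3. Higher with FL were 12 of 13 genes of the group named NAD-linked cycle, 4 of 6 NADP-linked and NADPH genes and 6 of 10 genes of entry and exit. A difference of at least 2-fold was reached by 4 genes, against 3.43% of all genes, and these were Cs at 2.35-fold, Mpc1 at 2.32-fold, Mpc2 at 2.01-fold and the sparsely counted Nnt at 2.01-fold. Next came Mdh2 at 1.97-fold, Ogdh at 1.94-fold and Idh3a at 1.68-fold. At the lower end of the genes called higher stood Suclg2 at 0.12 ± 0.04 and Suclg1 at 0.11 ± 0.04 on the log2 scale. Neither call held without FL replicate 1 (adjusted p = 0.118 and 0.178), without dCTD replicate 1 (0.110 and 0.0949) and under total-count scaling (0.296 and 0.375), and that of Suclg1 also ended without FL replicate 3 (0.104) or dCTD replicate 2 (0.0750), in ranges of 0.0144 to 0.296 and 0.00334 to 0.375 over 13 alternatives.

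The 3 genes lower with FL than with dCTD were Idh1, Me1 and Ogdhl. For Ogdhl the difference was -0.23 ± 0.08 (adjusted p = 0.0160, limma) with overlapping libraries, and the call ended without dCTD replicate 3 (log2 difference -0.14, adjusted p = 0.156), FL replicate 2 (0.0583) or FL replicate 3 (0.0774), in a range of 0.00186 to 0.156 over 13 alternatives. Pcx, Gls2, D2hgdh and Acly were not called, with 95% intervals of the difference from -0.09 to 0.08, from -0.34 to 0.12, from -0.19 to 0.05 and from -0.03 to 0.11. By their 3 calls, 20 of the 29 genes were higher with each form than with LacZ and higher with FL than with dCTD. The share of all genes with these 3 calls together was not computed. Taken singly, the calls were met by 30.9% (FL over LacZ), 23.1% (dCTD over LacZ) and 22.4% (FL over dCTD) of all genes tested. The Ppargc1a count was itself 1.88 times higher with FL than with dCTD, and how much of these differences goes with it was not tested.

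**Figure D4:**
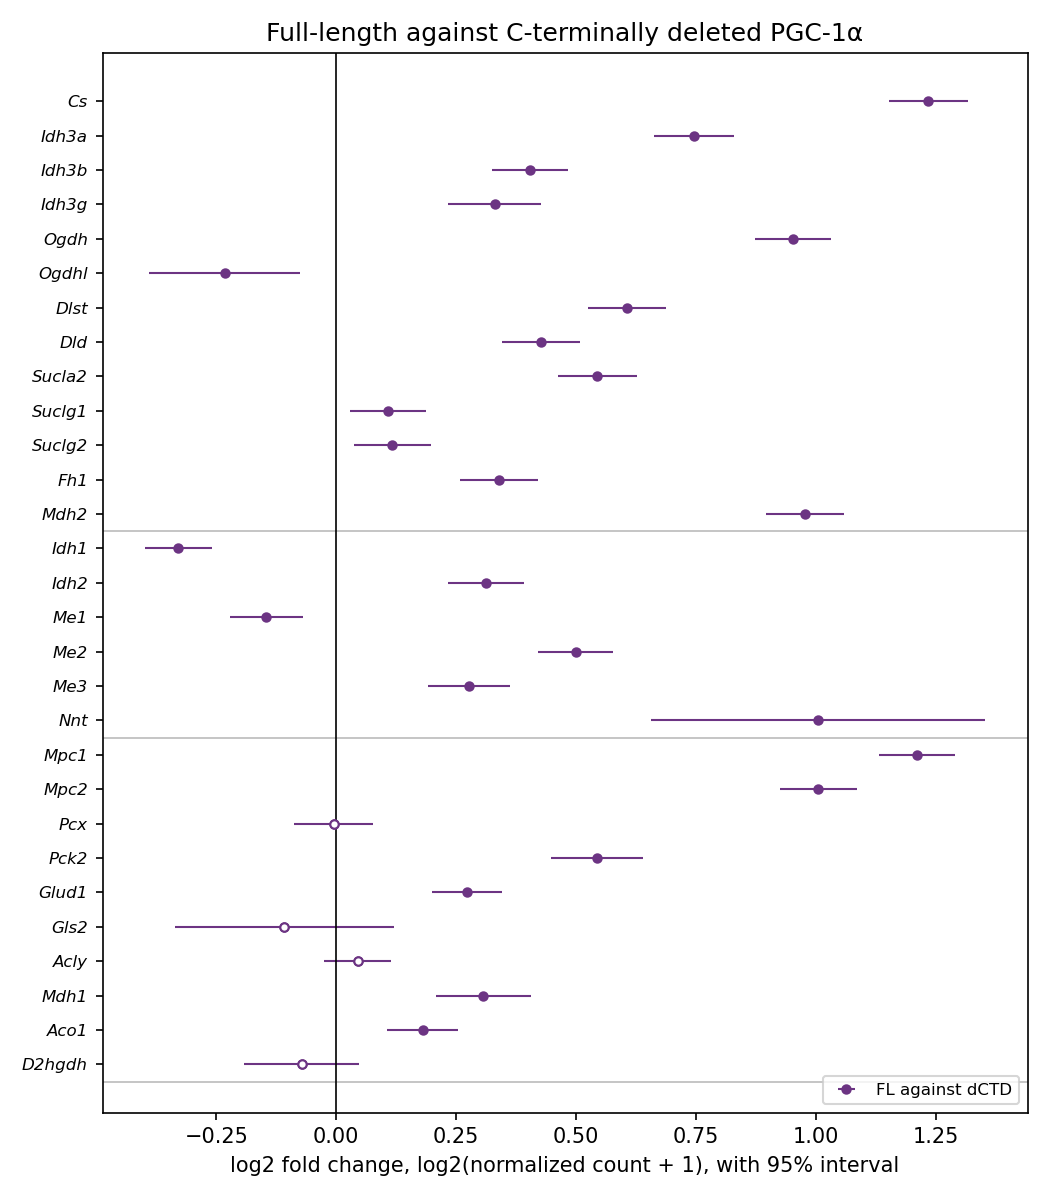
Log2 difference of FL over dCTD for each gene from limma, points with 95% intervals and open points where the test was not passed. Cs, Mpc1, Mpc2 and Nnt lie at 1.01 to 1.23, and Idh1, Me1 and Ogdhl lie below 0.

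As a share of all reads assigned to genes other than Ppargc1a, the 29 genes took 0.349% ± 0.00229 with LacZ, 1.12% ± 0.0398 with FL and 0.766% ± 0.0205 with dCTD (SD, n = 3, exact permutation p = 0.1 for each pair of groups, the smallest possible). The 13 genes of the NAD-linked cycle group took 0.206% with LacZ, 0.782% with FL and 0.483% with dCTD. The 6 NADP-linked and NADPH genes differed in this respect, with 0.0421% ± 0.000406 with LacZ, 0.0573% ± 0.000557 with FL and 0.0581% ± 0.000466 with dCTD, so FL and dCTD overlapped (exact permutation p = 0.2). Per kilobase of annotated exon, the order of levels also changed. Mdh1 was first in each group, at 15572 ± 853 with LacZ and 74032 ± 3662 with FL. Behind it with LacZ came Dld at 7355 ± 319 and Mdh2 at 7234 ± 211, which did not differ beyond their spread. Cs moved from place 5 with LacZ to place 2 with FL, at 35870 ± 2046 per kilobase, Idh3a from place 16 to 7, and Idh1 from place 4 to 15. These lengths join the exons of all transcripts of a gene, which lowers the per-kilobase level of genes with long minor transcripts such as Me3 and Mpc2.

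**Figure D5:**
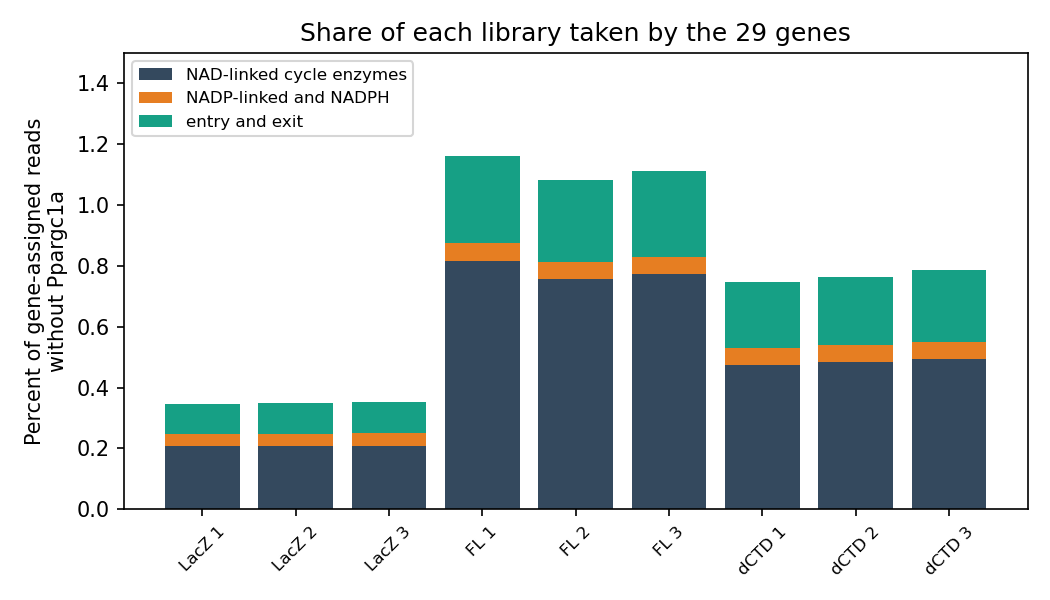
Percent of the reads assigned to genes other than Ppargc1a that the 29 genes took in each library, stacked by role. The bars reach 0.347 to 0.351 with LacZ, 1.08 to 1.16 in FL libraries and 0.747 to 0.788 with dCTD, and most of the added height is the layer of cycle enzymes.

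Further genes of the cycle, its inputs and NADPH supply were taken from a list of 30 written for comparison. Of 28 tested, 25 were higher with FL than with LacZ and the other 3 not called (median 0.98), against 30.9% of all genes called higher. With dCTD 24 were higher and the other 4 not called (median 0.94), against 23.1%. With FL 18 were higher and 3 lower than with dCTD (median 0.23), against 22.4% and 17.8%. Got1, the cytosolic aspartate aminotransferase of the malate-aspartate shuttle, rose by 3.65 ± 0.04 with FL and 2.37 ± 0.04 with dCTD. For Got2, the mitochondrial aminotransferase, the rises were 2.23 ± 0.04 and 1.36 ± 0.04. The 3 lower with FL than with dCTD were Mcee at -0.25 ± 0.05, Pgd at -0.12 ± 0.04 and Pcca at -0.11 ± 0.04, which were named after their values were seen. Pck1, the cytosolic counterpart of Pck2, and Acss1 were under the filter on low values.

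Promoter sequences were looked at because many of the 29 genes rose together. RefSeq windows in GRCm38.p6, from 250 bases before to 50 bases after a start site, were at hand for 25 of the 29 genes. Both strands were searched. The estrogen-related receptor element TNAAGGTCA was in the windows of 0 of the 25 genes, against 1.43% of 27025 genes with a window. The NRF1 motif GCGCANGCG was in the windows of 3 of the 25 genes (Dld, Ogdh and Sucla2, 12% against 7.03% of all genes), the CRE TGACGTCA in 2 (Mdh2 and Ogdh, 8% against 2.03%), the GABP motif CCGGAAGT in 1 (Dlst, 4% against 4.31%), the YY1 motif AAGATGGCG in 1 (Idh3g, 4% against 1.64%) and the E-box CACGTG in 3 (Ogdh, Ogdhl and Pcx, 12% against 8.09%). These shares are per gene, and a gene with more windows has more room for a match. The 25 genes have 34 windows, and all 27025 genes have 32851. Ogdh alone has 6, and is among the genes with a match for NRF1, the CRE and the E-box. A match is a run of letters and not a shown binding site, and its absence from this window says nothing of the factor. The windows of genes that rose at least 2-fold with FL and hold an NRF1 or CRE match before the start site are given 5′ to 3′, as the 250 bases before that site, with the match in capitals. In the first, NRF1 in Ogdh, the match begins at position -15 from the start site, and in the second, NRF1 in Sucla2 read on the other strand, at -16. The third holds the CRE of Mdh2 at -127, and the fourth the CRE before a separate start site of Ogdh at -51. Each position is counted from 1 RefSeq start site. Ogdh has 6 windows, and other windows give its NRF1 match at -36 and its CRE at -60 and -113. The first 2 windows lie inside the annotated genes, which begin at 6291633 and 73525319, and the Mdh2 window holds the annotated gene start, 135778480. The motifs shown in capitals overlap no other motif searched.
Ogdh, chr11:6292308-6292557, + strand: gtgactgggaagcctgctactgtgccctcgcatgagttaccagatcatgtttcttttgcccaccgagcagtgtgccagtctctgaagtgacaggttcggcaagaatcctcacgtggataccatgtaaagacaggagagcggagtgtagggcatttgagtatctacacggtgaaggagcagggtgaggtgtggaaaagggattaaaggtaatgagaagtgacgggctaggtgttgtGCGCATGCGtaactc
Sucla2, chr14:73552536-73552785, + strand: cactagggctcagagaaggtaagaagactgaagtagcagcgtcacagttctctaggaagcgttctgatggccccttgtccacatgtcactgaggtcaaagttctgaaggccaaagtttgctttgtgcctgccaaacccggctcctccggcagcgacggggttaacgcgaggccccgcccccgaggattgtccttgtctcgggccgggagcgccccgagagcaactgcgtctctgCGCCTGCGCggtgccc
Mdh2, chr5:135778399-135778648, + strand: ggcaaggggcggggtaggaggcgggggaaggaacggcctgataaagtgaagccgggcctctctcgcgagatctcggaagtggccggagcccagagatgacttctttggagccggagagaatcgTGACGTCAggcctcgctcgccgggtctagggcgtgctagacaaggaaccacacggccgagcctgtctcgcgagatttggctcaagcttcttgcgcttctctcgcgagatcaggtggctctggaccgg
Ogdh, chr11:6291347-6291596, + strand: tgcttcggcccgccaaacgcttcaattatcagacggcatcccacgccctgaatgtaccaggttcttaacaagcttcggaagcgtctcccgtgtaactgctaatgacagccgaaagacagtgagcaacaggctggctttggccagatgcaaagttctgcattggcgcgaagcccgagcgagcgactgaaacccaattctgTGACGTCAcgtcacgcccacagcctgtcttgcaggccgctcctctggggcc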

How the data were processed

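Reads were counted per gene by the authors, per the file headers, and mm10, featureCounts 1.6.4 and STAR 2.7.2b are named, with DESeq2 2.11.40.6, FastQC 0.72 and Trim Galore 0.4.3.1, in the submitters' processing notes, without settings. The deposited signal per library is a normalized count, reads divided by a size factor within each of 2 tables, per the file headers. The authors' log2 fold changes with their standard errors, p-values and Wald score stand beside it in the deposited tables, per the file headers, and are not quoted here. Starts in the tables count from 0, and 1 was added.

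Divided by its library's smallest value, each of the 317312 values above 0 came out whole within 0.001 reads (100%), so reads were recovered, and 0 genes differed between the LacZ columns of the tables. FL and dCTD were each compared with LacZ within their table, and FL with dCTD on recovered reads scaled together, by limma 3.58.1 in R 4.3.3 (trend, robust) on log2(normalized count + 1) with a minimum mean of 10 per gene, two-sided. This scale understates changes of low counts. Ratios of 2 genes and read shares were tested over libraries by exact two-sided permutation (SciPy 1.17.1). Alternatives included edgeR 4.0.16 and DESeq2 1.42.0 on the recovered reads. Of these steps only the limma fit of FL against LacZ was tried on simulated counts, with an outcome not given here. Exon lengths and overlaps are from GENCODE vM21, in which 99.5% of the shared genes have the tables' coordinates. P-values measure the spread between these libraries, and those from limma use variances drawn toward a trend over all genes tested. Reads of near-identical gene copies may have been divided or dropped. The genes and lists were chosen with earlier results of these data known, and every member is named. Of the comparison list, the genes named are the 3 with the largest called change with FL against LacZ, any called opposite to the majority, and those under the filter. Of these genes, 1 is not reported here. The in vitro AP-seq of the design text was not analysed here.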

Additional observations from a re-analysis of the deposited data

How the results depend on the processing

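Of 87 results (29 genes in 3 comparisons), 72 kept direction and side of the threshold under all 13 alternatives. Genes called lower were 2 for FL against LacZ and became 1 with no filter on low values and with DESeq2. For dCTD against LacZ the 1 lower gene became 0 with no filter and 2 under total-count scaling. With the added rule of at least 2-fold change, chosen after seeing the data, lower calls were 0 in all 3 comparisons, and higher calls 12 with dCTD and 4 between FL and dCTD. Leaving out 1 library gave 23 to 24 higher and 1 to 2 lower genes for FL against LacZ (1 without LacZ replicate 2, FL replicate 1 or FL replicate 3), 22 and 0 to 2 for dCTD against LacZ (0 without LacZ replicate 2, dCTD replicate 1 or dCTD replicate 2, 2 without dCTD replicate 3), and 20 to 22 and 2 to 3 between FL and dCTD. These turns involve Pcx, Acly, Ogdhl, Suclg1 and Suclg2, and the cause was not tested.

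Signs turned for genes with no call. For dCTD against LacZ, Me1 read 0.00213 with edgeR, 0.00419 with 9 libraries scaled together and, without 1 library, -0.0309 to 0.0332, Nnt -0.0319 to 0.0902, Gls2 -0.125 to 0.0994 and D2hgdh -0.0231 to 0.0663. For FL against dCTD, Acly read -0.0222 under total-count scaling and Pcx -0.0467 to 0.0372 without 1 library. The Nnt/Idh2 log2 ratio for FL against LacZ read -0.0782 with a pseudocount of 10.

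Same-numbered libraries were not paired, since their deviations correlated at -0.08 to 0.08. Between FL and dCTD each library did correlate best with its own number. With the replicate number as a block, 24 genes were higher and 2 lower for FL against LacZ, 22 and 0 with dCTD and 22 and 3 between FL and dCTD, the lost gene being Acly (adjusted p = 0.0943). On recovered reads edgeR called 5555 genes higher and 5403 lower for FL against LacZ. Depth limits Nnt, with 498 reads in all.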
